A study of Mus musculus with 16 samples.

Results

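Genes of neurons and cranial ganglia were followed through the surface ectoderm and the underlying mesenchyme of the mouse face. The set held 31 named genes, chosen by symbol, out of 30286 symbols in the deposited expression table, and all 31 were found, each in a single row. They were 17 genes that neurons use in general (cytoskeleton, RNA binding, growth cone and synapse), 2 genes of peripheral neurons, 6 sensory genes, 2 Isl factors of sensory and motor neurons, 3 autonomic and neuroendocrine genes, and Lhx2. Tissue came from the facial prominences, the buds that form the face, of C57BL/6 embryos at embryonic day 12. The groups were Esrp1 knockout (KO) ectoderm, wild-type (WT) ectoderm, KO mesenchyme and WT mesenchyme. KO embryos were homozygous for loss of Esrp1, a splicing regulator of epithelial cells, by an allele that the labels do not describe further; both layers of a KO embryo carry it. Each group had 4 libraries, each from a pool of 6 to 7 mice, and the deposited table gives 1 value per gene and group. The values below therefore carry no error, no test could be run, and "higher" and "lower" describe the deposited values.

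Sensory neurons of the face have their cell bodies in the cranial ganglia and in the olfactory epithelium, and axons from the ganglia run through the mesenchyme to the skin. Trigeminal sensory neurons arise from neural crest and from placodes, which are thickenings of the ectoderm, under the control of proneural factors such as Neurog1 and Neurod1. Olfactory neurons form in the ectoderm of the nasal pit. RNA is found mainly in the cell body, with a smaller pool in the axon, so that neuron transcripts in dissected facial tissue can come from either.

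The layers were separated as labelled. Epithelial core genes (24 genes) summed to 3561 TPM (transcript abundance scaled for library size and transcript length) in KO ectoderm, 4155 in WT ectoderm, 39.7 in KO mesenchyme and 37.5 in WT mesenchyme. Mesenchyme core genes (24 genes) summed to 750 TPM in KO ectoderm, 381 in WT ectoderm, 2595 in KO mesenchyme and 3925 in WT mesenchyme. RNA of these genes was thus higher in the KO ectoderm column than in the WT ectoderm column, and which cells it came from was not tested. Esrp1 was at 62.9 TPM in KO ectoderm against 170 in WT ectoderm. TPM keep no record of sequencing depth, which is unknown for every value below. In bulk tissue, fewer cells of a type and less RNA per cell cannot be told apart.

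General neuron genes were present in both layers and were most abundant in mesenchyme. Their 17 values summed to 127 TPM in KO ectoderm, 82.2 in WT ectoderm, 502 in KO mesenchyme and 325 in WT mesenchyme. Tubb3, the neuron-specific beta tubulin, was at 33.6 TPM in KO ectoderm, 16.8 in WT ectoderm, 110 in KO mesenchyme and 81.0 in WT mesenchyme. Gap43, a protein of growth cones, was at 15.99 TPM in KO ectoderm, 10.8 in WT ectoderm, 115 in KO mesenchyme and 77.9 in WT mesenchyme. Both genes were several fold higher in each mesenchyme column than in the ectoderm column of the same genotype.

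The stathmins, which destabilise microtubules in growing neurons, shared that order. Stmn2 was at 12.1 TPM in KO ectoderm, 7.17 in WT ectoderm, 77.0 in KO mesenchyme and 44.8 in WT mesenchyme. Stmn3 was at 2.56 TPM in KO ectoderm, 1.47 in WT ectoderm, 20.0 in KO mesenchyme and 7.65 in WT mesenchyme. Stmn4 was at 1.49 TPM in KO ectoderm, 0.98 in WT ectoderm, 16.02 in KO mesenchyme and 5.4 in WT mesenchyme. All 3 stathmins had their highest value in KO mesenchyme and their lowest in WT ectoderm.

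Neurofilaments, the intermediate filaments of axons, were low in ectoderm and higher in mesenchyme. Nefl, the light chain, was at 1.60 TPM in KO ectoderm, 0.60 in WT ectoderm, 29.5 in KO mesenchyme and 18.3 in WT mesenchyme. Nefm, the medium chain, was at 1.58 TPM in KO ectoderm, 0.89 in WT ectoderm, 28.3 in KO mesenchyme and 20.0 in WT mesenchyme. Nefh, the heavy chain, which is known to be made late in neuron maturation, stayed between 0.30 and 0.34 TPM in all 4 groups. Ina, an intermediate filament protein of neurons, was at 3.14 TPM in KO ectoderm, 1.91 in WT ectoderm, 11.1 in KO mesenchyme and 8.04 in WT mesenchyme.

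Map2 and Mapt, which encode microtubule-associated proteins, differed by less than 2-fold between the layers in both genotypes. Map2, a protein of dendrites, was at 20.8 TPM in KO ectoderm, 13.4 in WT ectoderm, 28.2 in KO mesenchyme and 20.0 in WT mesenchyme. Mapt, which encodes the axonal protein tau, was at 8.37 TPM in KO ectoderm, 7.98 in WT ectoderm, 8.02 in KO mesenchyme and 6.28 in WT mesenchyme. Dcx, a microtubule protein of migrating young neurons, was at 5.06 TPM in KO ectoderm, 6.36 in WT ectoderm, 12.9 in KO mesenchyme and 5.67 in WT mesenchyme. Dcx was lower in ectoderm than in mesenchyme in KO tissue (log2 ratio -1.19), and was the general neuron gene whose KO value lay above WT in mesenchyme and below WT in ectoderm.

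**Figure D1:**
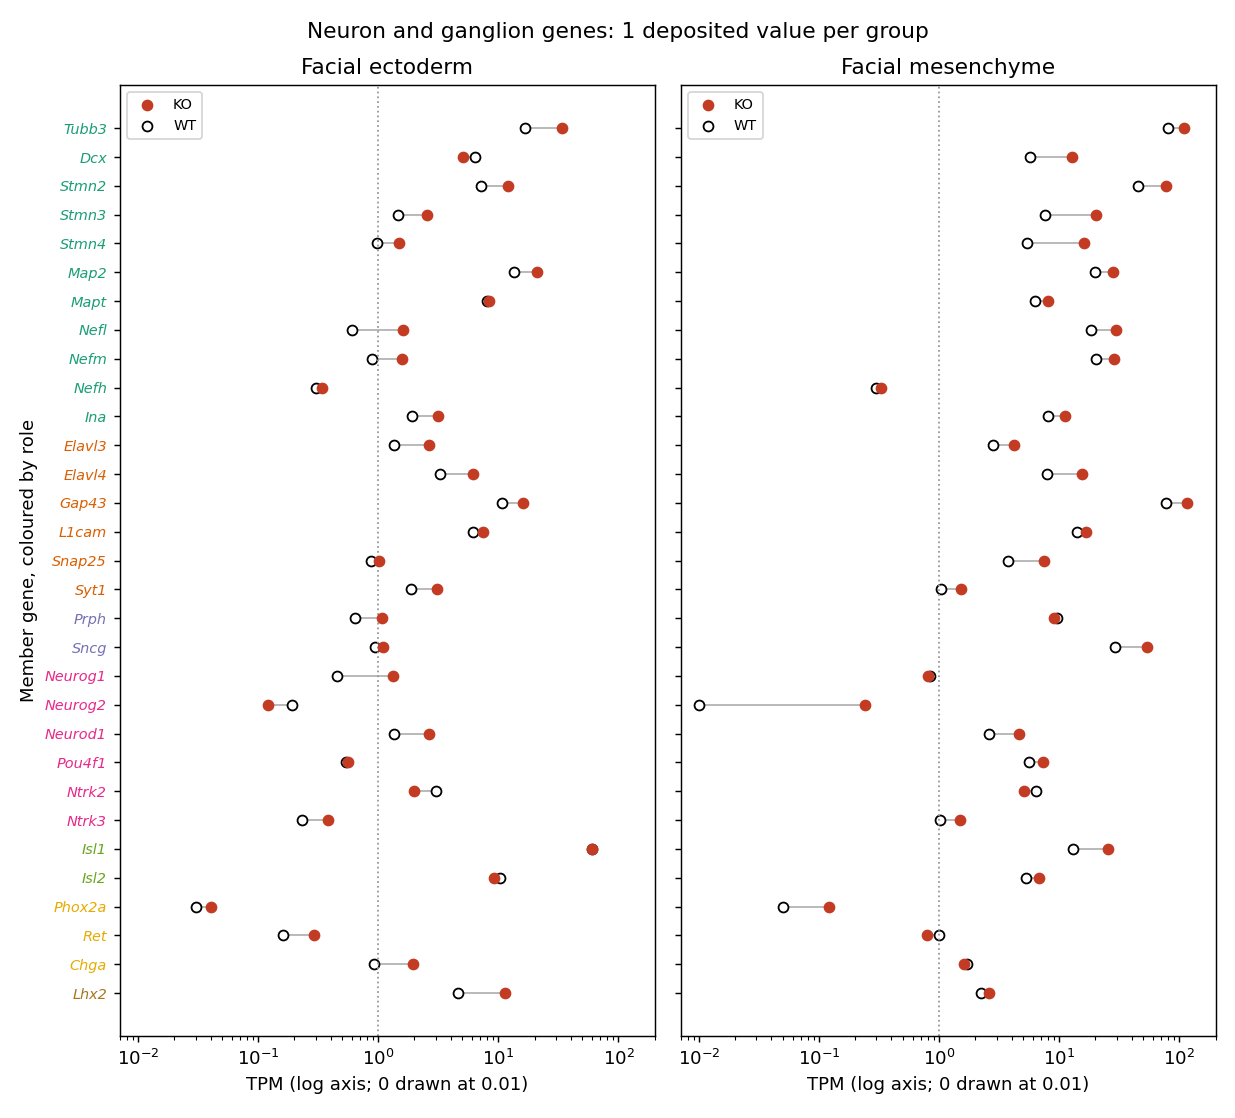
TPM of the 31 genes (log axis) in facial ectoderm (left panel) and facial mesenchyme (right panel), with 1 point per group (KO filled, WT open), gene names coloured by role, and a dotted line at 1 TPM. Most general neuron genes lie further right in mesenchyme, Isl1 lies further right in ectoderm, and Nefh, Neurog2, Phox2a and Ret lie left of 1 TPM in both layers.

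Among genes of RNA binding, adhesion and vesicle release, the same layer order was seen for most. Elavl4, a neuronal RNA-binding protein, was at 6.18 TPM in KO ectoderm, 3.28 in WT ectoderm, 15.6 in KO mesenchyme and 7.92 in WT mesenchyme. Its paralog Elavl3 was at 2.66 TPM in KO ectoderm, 1.36 in WT ectoderm, 4.17 in KO mesenchyme and 2.80 in WT mesenchyme. L1cam, an adhesion molecule of axons, was at 7.39 TPM in KO ectoderm, 6.19 in WT ectoderm, 16.8 in KO mesenchyme and 14.1 in WT mesenchyme. Snap25, a SNARE protein of vesicle fusion, was near 1 TPM in ectoderm (1.02 in KO and 0.87 in WT) and reached 7.45 TPM in KO mesenchyme and 3.77 in WT mesenchyme. Syt1, the calcium sensor of vesicle release, had the opposite layer order, with 3.10 TPM in KO ectoderm, 1.87 in WT ectoderm, 1.52 in KO mesenchyme and 1.03 in WT mesenchyme.

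Sncg, Prph and Pou4f1, genes of peripheral and sensory neurons, were higher in mesenchyme. Sncg, which encodes a synuclein abundant in peripheral neurons, was at 1.09 TPM in KO ectoderm, 0.94 in WT ectoderm, 53.3 in KO mesenchyme and 28.9 in WT mesenchyme. Prph, the intermediate filament peripherin, was at 1.08 TPM in KO ectoderm, 0.64 in WT ectoderm, 9.00 in KO mesenchyme and 9.56 in WT mesenchyme. Pou4f1, a transcription factor of sensory ganglion neurons, was at 0.56 TPM in KO ectoderm, 0.54 in WT ectoderm, 7.31 in KO mesenchyme and 5.57 in WT mesenchyme. Taken as a share of the general neuron sum, Sncg and Prph together amounted to 1.71% in KO ectoderm, 1.92% in WT ectoderm, 12.4% in KO mesenchyme and 11.8% in WT mesenchyme. The 6 sensory members had the opposite order, with 5.51% of the general neuron sum in KO ectoderm, 7.06% in WT ectoderm, 3.89% in KO mesenchyme and 5.04% in WT mesenchyme. Relative to general neuron genes, the pair of peripheral genes was thus lower in ectoderm and the sum of the sensory members was not. In ectoderm that sum came largely from Ntrk2 (1.99 TPM in KO and 3.05 in WT) and Neurod1 (2.63 in KO and 1.35 in WT). Pou4f1 by itself was lower in ectoderm relative to general neuron genes, as the peripheral pair was.

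The proneural factors were low throughout. Neurod1, which acts in early sensory and olfactory neurons, was at 2.63 TPM in KO ectoderm, 1.35 in WT ectoderm, 4.60 in KO mesenchyme and 2.61 in WT mesenchyme. Neurog1, which specifies trigeminal and olfactory neurons, was at 1.32 TPM in KO ectoderm, 0.45 in WT ectoderm, 0.81 in KO mesenchyme and 0.84 in WT mesenchyme, and was thus highest in KO ectoderm. Neurog2, which acts in epibranchial placodes, did not exceed 0.24 TPM in any group and is listed at 0 in WT mesenchyme. Among the Trk receptors, Ntrk2 (a receptor of Bdnf) was at 1.99 TPM in KO ectoderm, 3.05 in WT ectoderm, 5.07 in KO mesenchyme and 6.34 in WT mesenchyme. Ntrk3, the receptor of Ntf3, was at 0.38 TPM in KO ectoderm, 0.23 in WT ectoderm, 1.5 in KO mesenchyme and 1.01 in WT mesenchyme.

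Motor neuron genes and the autonomic members Phox2a and Ret were low, while the autonomic list outside the members was mixed. Phox2a, a factor of autonomic and cranial motor neurons, lay between 0.03 and 0.12 TPM, and Ret, a receptor for ligands of the Gdnf family, between 0.16 and 0.99 TPM. Chga, a protein of secretory granules, was at 1.94 TPM in KO ectoderm, 0.92 in WT ectoderm, 1.62 in KO mesenchyme and 1.69 in WT mesenchyme. Of 9 motor neuron genes, none reached 1 TPM in KO ectoderm, WT ectoderm or WT mesenchyme, and 2 did in KO mesenchyme, among them Slc5a7, the choline transporter, at 1.08 TPM. Chat, the enzyme that makes acetylcholine, did not exceed 0.07 TPM, nor Mnx1, a factor of spinal motor neurons, 0.12 TPM. Dbh, the enzyme that makes noradrenaline, reached 0.22 TPM at most, while Gata2 and Gata3, 2 genes of the autonomic list, stood between 2.81 and 34.5 TPM. Gata2 and Gata3 are also known from other tissues, which makes them weak markers here. Th, the first enzyme of catecholamine synthesis, was at 2.93 TPM in KO ectoderm, 3.80 in WT ectoderm, 0.85 in KO mesenchyme and 0.97 in WT mesenchyme. Ddc, the next enzyme of that pathway, was at 5.19 TPM in KO ectoderm, 5.33 in WT ectoderm, 7.65 in KO mesenchyme and 7.87 in WT mesenchyme, and Slc18a2, the vesicular monoamine transporter, lay between 2.09 and 3.46 TPM. Of the 12 genes of the autonomic list, 6 were at 1 TPM or more in KO ectoderm, 5 in WT ectoderm, 8 in KO mesenchyme and 7 in WT mesenchyme. Between genotypes, 2 of 6 genes measured in ectoderm were higher in KO and 0 lower (median 0.03), against 4.93% and 0.452% of all genes. In mesenchyme 0 of 7 were higher and 1 was lower (median -0.06), against 2.35% and 13.4% of all genes. The lower gene was Hand1, at 3.20 TPM in KO and 6.84 in WT.

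The sensory list outside the members had more of its genes above 1 TPM in mesenchyme. Of 17 genes found, 7 were at 1 TPM or more in KO ectoderm, 5 in WT ectoderm, 13 in KO mesenchyme and 12 in WT mesenchyme. Tac1, the precursor of substance P, was at 1.71 TPM in KO ectoderm, 0.51 in WT ectoderm, 14.6 in KO mesenchyme and 15.0 in WT mesenchyme. Prrxl1, a factor of pain and temperature neurons, was at 0.06 TPM in KO ectoderm, 0.07 in WT ectoderm, 2.52 in KO mesenchyme and 2.28 in WT mesenchyme. Scn10a and Trpv1, channels of pain neurons, did not exceed 0.89 TPM in any group. Other channel genes of the list were higher in mesenchyme, such as P2rx3 (9.41 TPM in KO and 5.65 in WT) and Scn9a (3.21 in KO and 1.60 in WT). Comparing genotypes, 2 of the 6 sensory ganglion genes measured in ectoderm were 1.5-fold higher in KO (Sst and Tac1), with a list median of 0.17. The touch channel gene Piezo2 was the 1 lower gene (10.7 TPM in KO and 17.3 in WT). Among all genes measured in ectoderm, 4.93% were higher in KO and 0.452% lower.

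The LIM homeodomain factors had higher values in ectoderm than in mesenchyme. Isl1, a factor of sensory and motor neurons that is also known from the epithelium of the lower jaw, was at 60.7 TPM in KO ectoderm, 60.0 in WT ectoderm, 25.6 in KO mesenchyme and 13.0 in WT mesenchyme. Isl2 was at 9.11 TPM in KO ectoderm, 10.3 in WT ectoderm, 6.80 in KO mesenchyme and 5.30 in WT mesenchyme. Lhx2, a factor of olfactory neuron and forebrain development, was at 11.4 TPM in KO ectoderm, 4.61 in WT ectoderm, 2.60 in KO mesenchyme and 2.24 in WT mesenchyme. The ectoderm level of Isl1 exceeded that of Tubb3 in both genotypes, whereas in mesenchyme Tubb3 exceeded Isl1.

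Promoter windows of 4 members are shown because they stand for the patterns described: Stmn3 and Sncg for genes high in KO mesenchyme, Isl1 for the gene highest in ectoderm, and Lhx2 for the largest KO difference in ectoderm. Each window is 300 bases of RefSeq sequence on GRCm38.p6, from 250 bases before to 50 after an annotated start site, written 5′ to 3′ on the strand of the gene. Capitals mark CAGATG or CAGCTG on either strand, forms of the E-box that proneural factors such as Neurog1 and Neurod1 are known to bind. Only windows holding at least 1 of these forms were taken for printing, so that a match in all 4 was set in advance. Stmn3 lies at chr2:181314451-181314750 (minus strand), Sncg at chr14:34374620-34374919 (minus strand), Isl1 at chr13:116309639-116309938 (minus strand) and the Lhx2 window at chr2:38351058-38351357 (plus strand).
Stmn3: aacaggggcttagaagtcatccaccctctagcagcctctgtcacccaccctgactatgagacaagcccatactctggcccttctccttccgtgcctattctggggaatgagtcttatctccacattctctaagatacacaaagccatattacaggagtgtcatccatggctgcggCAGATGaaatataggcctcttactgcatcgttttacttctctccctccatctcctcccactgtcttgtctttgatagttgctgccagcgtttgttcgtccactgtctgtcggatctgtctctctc
Sncg: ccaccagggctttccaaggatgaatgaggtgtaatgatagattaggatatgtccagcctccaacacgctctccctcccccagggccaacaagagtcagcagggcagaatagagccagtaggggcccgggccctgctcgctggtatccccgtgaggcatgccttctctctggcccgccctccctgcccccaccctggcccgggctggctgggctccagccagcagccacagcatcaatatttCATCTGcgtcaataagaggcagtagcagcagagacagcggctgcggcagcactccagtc
Isl1: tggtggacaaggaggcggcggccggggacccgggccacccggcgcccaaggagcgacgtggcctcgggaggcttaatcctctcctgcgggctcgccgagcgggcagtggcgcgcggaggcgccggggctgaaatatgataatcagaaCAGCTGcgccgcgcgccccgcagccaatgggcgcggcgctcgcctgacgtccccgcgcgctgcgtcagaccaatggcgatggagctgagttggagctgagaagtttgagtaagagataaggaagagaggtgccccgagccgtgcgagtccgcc
Lhx2: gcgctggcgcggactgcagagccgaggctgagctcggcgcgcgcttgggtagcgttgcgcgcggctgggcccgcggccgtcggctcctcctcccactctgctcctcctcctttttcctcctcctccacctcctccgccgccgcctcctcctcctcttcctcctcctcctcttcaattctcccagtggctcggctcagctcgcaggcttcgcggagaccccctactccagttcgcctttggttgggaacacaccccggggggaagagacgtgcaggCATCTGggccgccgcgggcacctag
Windows were given for 21 of the 31 members, 28 windows in all. CAGATG, in either orientation, was found in 9 of them (6 genes) and CAGCTG, which reads the same on both strands, in 8 (7 genes). At least 1 of the 2 forms was found in 15 windows (12 genes). The motifs do not overlap each other, and 17.2% of all 32851 windows held CAGATG, 16.3% held CAGCTG and 30.6% at least 1 of them. The match lies 75 bases before the start site in Stmn3, 9 before it in Sncg and 103 before it in Isl1, and at base 26 after it in Lhx2. These matches are letters in a window and say nothing on binding.

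Differences between layers were counted at 2-fold or more on the log2 scale of TPM plus 1, a scale that compresses ratios of weakly expressed genes. A gene counted as measured when it averaged 1 TPM or more over the columns compared. In WT tissue 25 of 31 members passed that minimum. Of these, 14 were lower in ectoderm than in mesenchyme and 1, Isl1, was higher (log2 ratio 2.12), against 12.1% and 6.89% of all genes measured. The lowest ratios belonged to Sncg (-3.95), Nefl (-3.59), Nefm (-3.48), Gap43 (-2.74) and Prph (-2.69). Between the KO layers, 16 of 26 members were lower in ectoderm and 2, Lhx2 (1.78) and Isl1 (1.22), were higher, against 6.88% and 9.06% of all genes. The members missing from the lower list of both genotypes included Map2, Mapt, Syt1, Elavl3 and Neurod1, whose ratios lay between -0.69 and 0.70.

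In KO ectoderm, part of the neuron genes had higher values than in WT ectoderm. Lhx2 had the largest log2 ratio (1.14), followed by Tubb3 (0.96), Elavl4 (0.75), Nefl (0.70), Stmn2 (0.68), Elavl3 (0.63), Neurod1 (0.63), Chga (0.61) and Map2 (0.60). These 9 of 22 members measured were at least 1.5-fold higher and none was 1.5-fold lower, against 4.93% and 0.452% of all genes. The median of the 22 was 0.52, and of all genes 0.05. Isl1 (0.02), Mapt (0.06), Sncg (0.11), Isl2 (-0.16), Dcx (-0.28) and Ntrk2 (-0.44) were within 1.5-fold. Of the 9 members under the minimum in ectoderm, Neurog1 had the largest difference, at 1.32 TPM in KO and 0.45 in WT. Under quantile normalization 2 members, Lhx2 and Tubb3, were 1.5-fold higher and Ntrk2 was 1.5-fold lower, and with a pseudocount of 5 again 2 were higher.

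Genes of the olfactory placode and its neurons moved in the same column. Of 16 measured genes of that list, which includes Neurod1 and Lhx2, 15 were at least 1.5-fold higher in KO ectoderm, with a median log2 ratio of 1.12. Among all genes measured in ectoderm, 4.93% were higher and 0.452% lower. Fezf1, a factor of olfactory neurons, was at 23 TPM in KO ectoderm and 6.23 in WT ectoderm, and Sp8, a factor of the nasal pit, at 8.34 TPM in KO and 2.36 in WT ectoderm. Ebf3, a factor of neuron differentiation, was at 12.6 TPM in KO ectoderm, 4.16 in WT ectoderm, 57.0 in KO mesenchyme and 73.3 in WT mesenchyme. Ebf3 and 4 other genes of the list (Ebf1, Ebf2, Emx2 and Gng8) exceeded their WT ectoderm value over 5-fold in WT mesenchyme. With a share of WT mesenchyme subtracted, 12 of 16 were past 1.5-fold (median 0.82). The share of all genes past 1.5-fold after that subtraction is not given here. Among the other general neuron genes 7 of 24 were higher and none lower (median 0.30), with Rtn1 (10.3 TPM in KO and 4.90 in WT), Celf3 (3.19 in KO and 1.26 in WT), Crmp1 (12.0 in KO and 6.22 in WT) and Nhlh1 (4.07 in KO and 1.85 in WT) at the top. The part of a difference in nasal tissue between the columns in the values of the neuron genes was not tested.

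**Figure D2:**
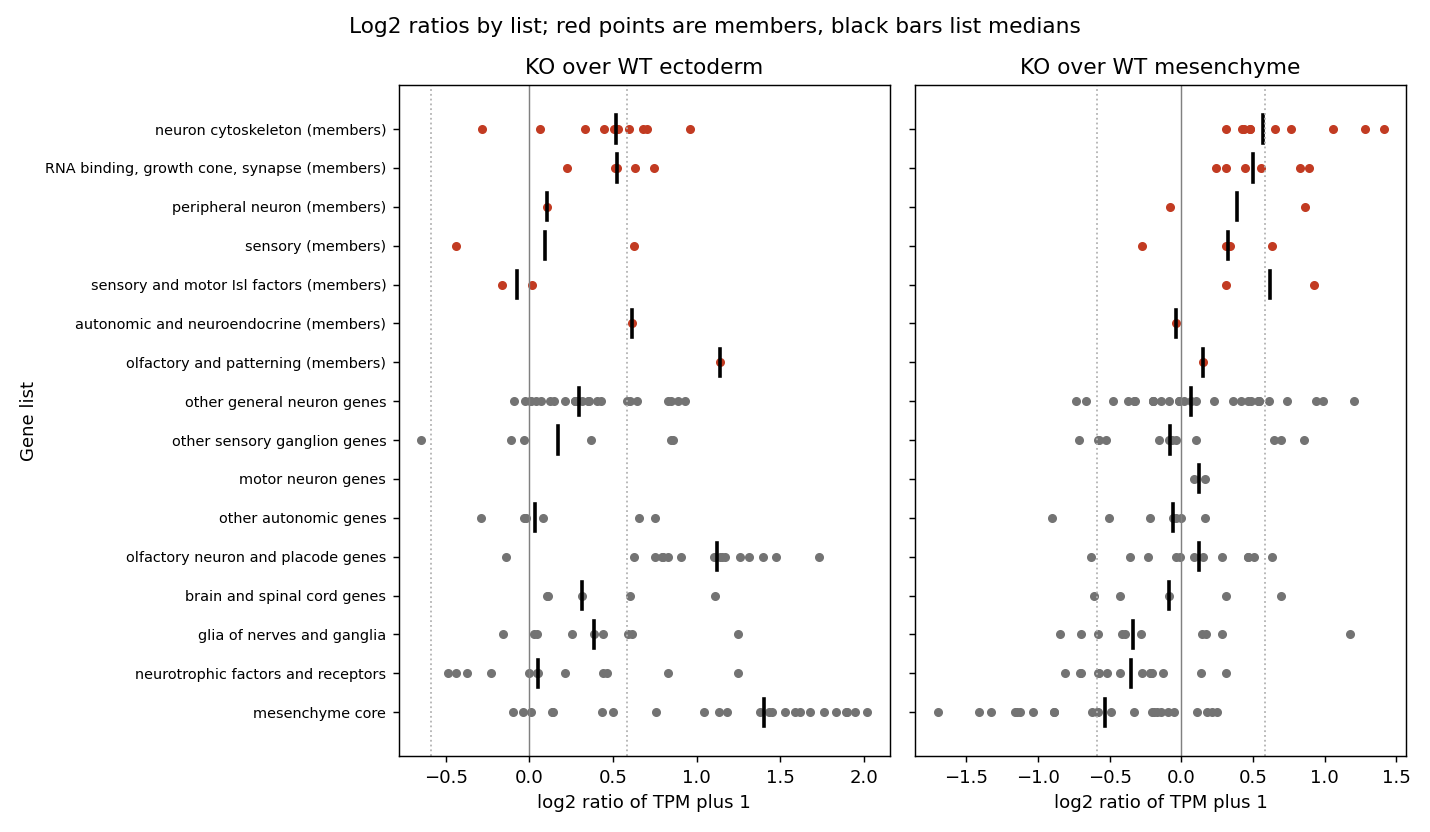
Log2 ratio of TPM plus 1, KO over WT, in ectoderm (left) and mesenchyme (right) for each measured gene of the lists, with members in red, other genes in grey, a black bar at the list median and dotted lines at 1.5-fold. Olfactory genes have a median of 1.12 in ectoderm and 0.12 in mesenchyme, and mesenchyme core genes 1.40 and -0.53.

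Lists of other tissues moved in KO ectoderm as well. At 1.5-fold, 17 of 24 mesenchyme core genes (median 1.40), 9 of 9 skeletal muscle genes (median 1.38) and 10 of 10 endothelial genes (median 1.15) were higher there, while 1 of 24 epithelial core genes was higher and 2 were lower (median -0.15). In KO mesenchyme 4 of 11 muscle genes (median -0.44) and 3 of 10 endothelial genes (median -0.43) were lower, and of 12 epithelial core genes none passed in either direction (median 0.02). Of 12 olfactory genes measured in mesenchyme, 1 was higher and 1 lower. Among all genes, 4.93% were higher and 0.452% lower in KO ectoderm, and 2.35% higher and 13.4% lower in KO mesenchyme.

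The gain of each neuron gene in KO ectoderm was set beside that of mesenchyme genes, because mesenchyme core genes summed higher in that column. The gain was the TPM difference of KO and WT ectoderm divided by the TPM difference of WT mesenchyme and WT ectoderm, and was compared over genes with a 5-fold or larger excess in WT mesenchyme. Mesenchyme core genes gained a median of 10.4% (18 genes, range 5.94 to 15.5%), endothelial genes 10.2% (10 genes) and skeletal muscle genes 15.2% (11 genes). Among the members, Pou4f1 gained 0.398%, Sncg 0.537%, Nefm 3.60%, Prph 4.93% and Nefl 5.64%, all under the lowest core gene. Gap43 (7.72%), Stmn4 (11.5%) and Stmn2 (13.1%) were inside the core range and Stmn3 (17.6%) above it. Nerve lists outside the members had medians inside the core range. These were 12.3% for other general neuron genes (4 genes), 8.26% for other sensory ganglion genes (7 genes, range -0.452 to 22.4%) and 12.7% for glial genes (4 genes). The low gains of some members were thus not shared by those lists. Set against KO mesenchyme in place of WT mesenchyme, the core median was 16.2% (17 genes, range 5.20 to 43.4%). On that basis Sncg (0.287%), Pou4f1 (0.295%), Nefm (2.51%), Stmn4 (3.39%), Nefl (3.47%) and Gap43 (4.97%) were under the core range, and Prph (5.26%), Stmn3 (5.87%) and Stmn2 (7.05%) were near its lower end. The medians of the other general neuron genes (6.10%, 6 genes), other sensory ganglion genes (8.50%, 7 genes) and glial genes (11.3%, 4 genes) were then below the core median.

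For members with a smaller layer difference such a share has a small divisor and was not compared. When 10.4% of WT mesenchyme was subtracted from the KO ectoderm column and the remainder scaled up to match, Lhx2 (1.26), Tubb3 (0.71), Elavl4 (0.71), Neurod1 (0.63), Chga (0.63), Elavl3 (0.63), Map2 (0.60) and Syt1 (0.60) were at least 1.5-fold higher. Stmn2 (0.19), Stmn4 (0.04) and Gap43 (-0.26) were then within 1.5-fold, Nefl was under the minimum and Ntrk2 (-0.70) was 1.5-fold lower. Of 19 members measured, 8 were thus higher and 1 lower (median 0.27). Among the cytoskeleton members 2 of 8 were higher (median 0.23). Before the subtraction 4.93% of all genes were higher, and the share after it is not given here. KO mesenchyme was not subtracted, and the core median gain against it was 16.2% in place of 10.4%. Most genes named as higher here had higher values in KO than in WT mesenchyme, such as Tubb3 (110 against 81.0 TPM). Chga did not (1.62 against 1.69 TPM). Whether these differences would remain after subtracting KO mesenchyme is not known. What part mesenchyme RNA has in these values was not tested beyond the subtraction of WT mesenchyme.

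**Figure D3:**
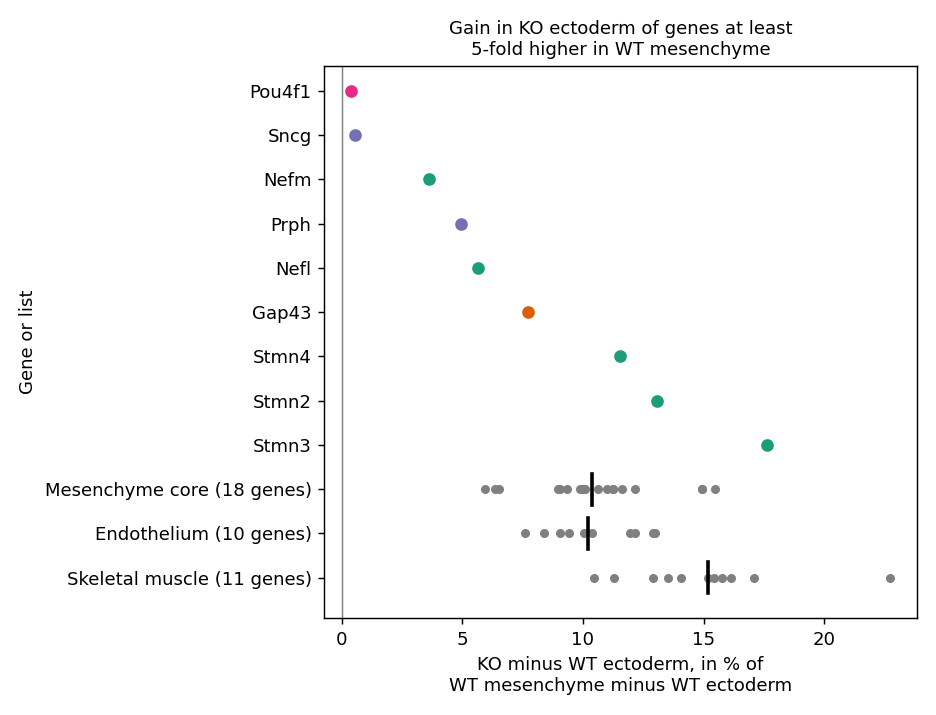
Gain of KO over WT ectoderm, in percent of the excess of WT mesenchyme over WT ectoderm, for the 9 members with a 5-fold or larger excess in WT mesenchyme (coloured points) and for 3 lists (grey points, black bar at the median). Pou4f1, Sncg, Nefm, Prph and Nefl lie left of all 18 mesenchyme core genes.

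In KO mesenchyme most of the members measured had higher values than in WT mesenchyme. Other general neuron genes were mixed (29 genes, median 0.07). Of 24 mesenchyme core genes, 11 were 1.5-fold lower or more and 0 higher (median -0.53). Stmn4 had the largest log2 ratio (1.41), then Stmn3 (1.28), Dcx (1.06), Isl1 (0.92), Elavl4 (0.89), Sncg (0.86), Snap25 (0.82), Stmn2 (0.77), Nefl (0.66) and Neurod1 (0.63). These 10 of 26 members measured were at least 1.5-fold higher and none was lower, against 2.35% and 13.4% of all genes. The median of the 26 was 0.46, whereas that of all genes was -0.12. All 16 general neuron genes measured had a ratio above 0, from 0.24 (L1cam) to 1.41 (Stmn4), also under each alternative tried in which they were measured. Prph (-0.08), Chga (-0.04) and Ntrk2 (-0.27) were the 3 members below 0, and Pou4f1 (0.34), Ntrk3 (0.31) and Tubb3 (0.44) were within 1.5-fold above it.

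Other nerve genes of KO mesenchyme were mixed. Among the other general neuron genes 5 of 29 were higher and 2 lower (median 0.07): Myt1 (5.12 TPM in KO and 1.66 in WT), Nhlh2 (5.69 in KO and 2.37 in WT), Elavl2 (10.4 in KO and 4.96 in WT) and Syp (6.32 in KO and 3.40 in WT) had the highest ratios, while Crmp1 (23.8 in KO and 38.4 in WT) was among the lower ones. Of 12 sensory ganglion genes 3 were higher and 1 lower (median -0.08), with Sst at 14.6 TPM in KO mesenchyme and 7.61 in WT, Scn9a at 3.21 in KO and 1.60 in WT, P2rx3 at 9.41 in KO and 5.65 in WT, and Runx3 at 1.95 in KO and 3.83 in WT. Sensory ganglion genes as a list did not share the median of the members. Among all genes measured in mesenchyme, 2.35% were higher in KO and 13.4% lower.

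Glial genes of nerves and ganglia did not move as a group. Of 10 measured in mesenchyme, 1 was higher and 2 were lower (median -0.33), against 2.35% and 13.4% of all genes. Fabp7, a lipid-binding protein of glia, was at 84.9 TPM in KO mesenchyme and 36.9 in WT, whereas Ngfr, the shared neurotrophin receptor, was at 14.3 TPM in KO and 23.8 in WT mesenchyme, and Erbb3, the neuregulin receptor of Schwann cells, at 7.45 in KO and 14.2 in WT. Sox10, the defining factor of these glia, was at 8.46 TPM in KO mesenchyme and 13.2 in WT (-0.58, just within 1.5-fold). In ectoderm 3 of 9 were higher, among them Ngfr (5.66 TPM in KO and 1.81 in WT), and none lower. The shares of all genes there were 4.93% and 0.452%.

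**Figure D4:**
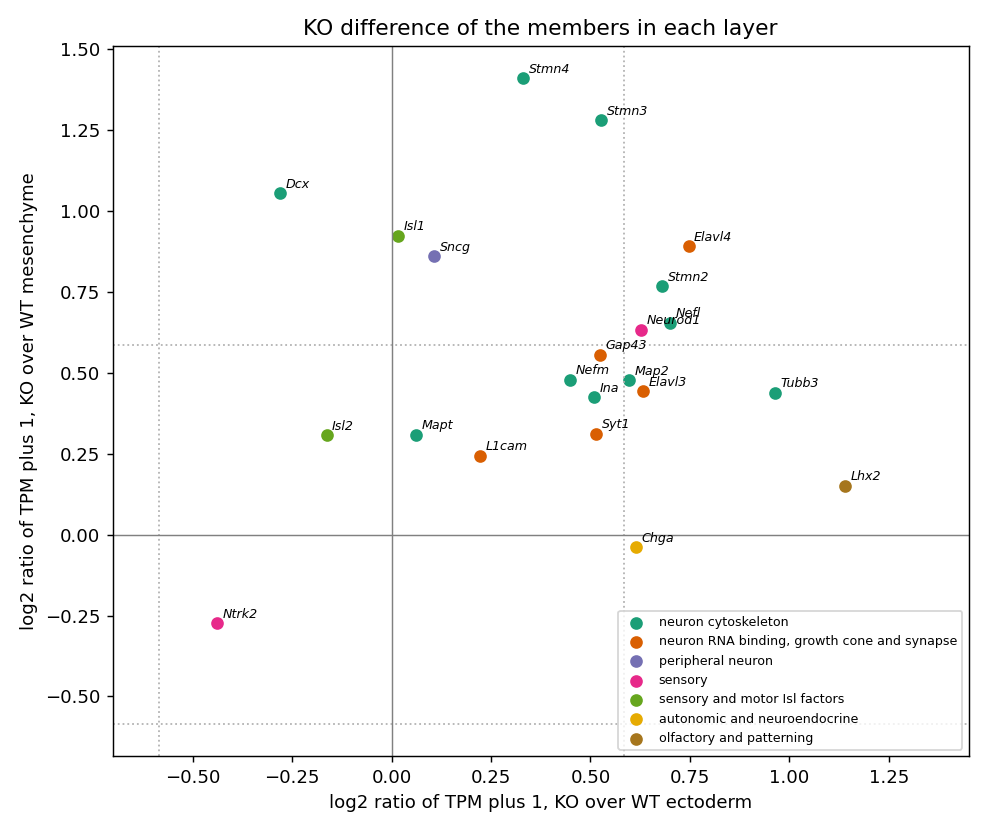
Log2 ratio of TPM plus 1, KO over WT, in ectoderm (horizontal) and mesenchyme (vertical) for the members measured in both, coloured by role, with dotted lines at 1.5-fold. Elavl4, Stmn2, Nefl and Neurod1 are past 1.5-fold in both layers, Dcx lies left of 0 in ectoderm and at 1.06 in mesenchyme, and Ntrk2 is below 0 in both.

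The KO mesenchyme column also differed by base composition. Among genes averaging 5 TPM or more, those with a transcript GC content under 42% had a median log2 ratio of 0.20 there and those at 58% or more one of -0.57, compared with -0.00 and 0.18 in ectoderm. Members with GC-rich transcripts such as Stmn3 (57.3% GC), Stmn4 (54.1%) and Sncg (56.6%) were higher in KO mesenchyme against that trend. Members with GC-poor transcripts, Snap25 (38.7%), Elavl4 (38.9%), Dcx (40.6%), Stmn2 (41.3%) and Neurod1 (43.6%), were higher in its direction, and the GC-rich Prph (60.8%) and Chga (58.4%) were not higher. After a GC trend was subtracted, 18 of 26 members exceeded 1.5-fold upward and none downward, with Stmn4 at 1.80, Stmn3 at 1.79, Sncg at 1.34, Nefm at 1.0 and Tubb3 at 0.97, while 4.84% of all genes were higher. The ratio of Elavl4 was then 0.68, that of Snap25 0.61 and that of Neurod1 0.57, just within 1.5-fold. Of the other general neuron genes 12 of 29 were then higher and none lower, and of the glial genes 1 higher and 1 lower. The origin of the GC trend was not tested.

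Elavl4, Nefl, Neurod1 and Stmn2 were the 4 members past 1.5-fold in both layers. In ectoderm alone 5 members passed (Chga, Elavl3, Lhx2, Map2 and Tubb3), in mesenchyme alone 6 (Dcx, Isl1, Snap25, Sncg, Stmn3 and Stmn4), and 16 in neither. Members under the minimum were counted as not passing. These were Snap25, Prph, Pou4f1 and Ntrk3 in ectoderm only, and Nefh, Neurog1, Neurog2, Phox2a and Ret in both layers. Among all genes measured, 4.93% were higher in KO ectoderm and 2.35% in KO mesenchyme. The share of all genes higher in both layers is not given here. The difference between the KO effects, ectoderm minus mesenchyme, reached 2-fold for Dcx (-1.34) and Stmn4 (-1.08), 2 of 25 members, and for none in the positive direction, against 0.593% and 7.34% of all genes. Lhx2 (0.99) was just short of 2-fold in the positive direction, and Isl1 stood at -0.91. No spread between libraries was available to judge these differences.

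RNA of ligands for Ntrk2, Ntrk3 and Ret was found in both layers for some ligands and mainly in ectoderm for others. Of 14 measured neurotrophic factors and receptors in mesenchyme, none was 1.5-fold higher in KO and 3 were lower, against 2.35% and 13.4% of all genes. In ectoderm 2 of 12 were higher and none lower, against 4.93% and 0.452% of all genes. The 2 were Ngfr and Gfra1, the Gdnf co-receptor at 8.46 TPM in KO and 4.33 in WT. Ntf3 stayed between 21.2 and 25.5 TPM in all 4 groups, and Ntf5, a ligand of Ntrk2, was at 20.1 TPM in KO ectoderm, 23.7 in WT ectoderm, 1.39 in KO mesenchyme and 1.61 in WT mesenchyme. Artn, a ligand of the Gdnf family, was at 7.25 TPM in KO ectoderm, 9.69 in WT ectoderm, 0.46 in KO mesenchyme and 0.94 in WT mesenchyme. Nrtn, of the same family, was at 2.57 TPM in KO ectoderm, 1.63 in WT ectoderm, 0.31 in KO mesenchyme and 0.21 in WT mesenchyme. Among the genes lower in KO mesenchyme were Ngfr and Gfra4, the second a receptor for ligands of the same family as Gdnf, at 8.75 TPM in KO and 14.9 in WT.

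Genes of brain and spinal cord gave a check on tissue from the central nervous system. Of 19 such genes, 6 were at 1 TPM or more in KO ectoderm, 4 in WT ectoderm, 4 in KO mesenchyme and 5 in WT mesenchyme, and the summed level ranged from 86.3 TPM in KO mesenchyme to 118 in KO ectoderm. Most of that sum came from Sox2 (50 TPM in KO ectoderm and 46.3 in WT ectoderm), Dlx1 and Nes, which facial tissue also expresses. Sox1, Neurod2, Neurod6, En2 and Pax5 did not exceed 0.16 TPM in any group, but other genes of the list did. Gad1 was at 5.26 TPM in KO ectoderm and 4.81 in WT ectoderm. Slc17a6 was at 2.30 TPM in KO mesenchyme and 1.04 in WT mesenchyme, and Olig2 at 1.29 in KO ectoderm and 0.52 in WT ectoderm. Gad2, an enzyme of GABA synthesis, was at 1.93 TPM in KO ectoderm and 0.36 in WT ectoderm. Of the 5 genes of this list measured in each layer, 2 were higher and 0 lower in KO ectoderm (median 0.32), against 4.93% and 0.452% of all genes. In KO mesenchyme 1 was higher and 1 lower (median -0.09), against 2.35% and 13.4% of all genes.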

How the data were processed

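RNA of 16 libraries (4 per group) was measured, and the deposited table gives 1 column of TPM per group. The TPM values were made by the authors; STAR 2.5.2a, kallisto 0.43.0 and build mm10 are named, per the submitters' processing notes, without saying which tool gave the values. Neither the annotation nor how the libraries became 1 column is stated there. Depth is unknown, and no interval is given.

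For the 103 symbols listed more than once (no member among them) the most abundant entry was used. Log2 ratios were taken of TPM plus 1, over genes averaging 1 TPM or more in the columns compared, and counted at 1.5-fold (KO against WT) or 2-fold (layers, and ectoderm minus mesenchyme effect). Members and lists were chosen with earlier results of these data known. From each other list, up to 4 measured genes with the largest ratios were to be named; genes named beyond that were chosen after their values were seen, and 2 listed symbols were not matched. Positions, transcript length and GC content (longest transcript) were read from GENCODE M21 (GRCm38, equivalent to mm10), in which 29994 symbols were found, and all 31 members had a GC value. The GC trend was a lowess fit (fraction 0.3, genes of at least 5 TPM, statsmodels 0.14.6), tested on simulated data. Another coding gene overlaps 9 members in the annotation (Tubb3, Nefl, Nefm, Ina, Elavl3, L1cam, Syt1, Neurod1 and Phox2a), and how reads of such pairs were assigned is not given. Promoters come from RefSeq (GRCm38.p6). A few results on listed genes are not reported here. Calculations used Python 3.11.15 and pandas 2.3.3.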

Additional observations from a re-analysis of the deposited data

Results flagged for a closer look

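Dcx stood out because its KO value was below WT in ectoderm (5.06 against 6.36 TPM) and above WT in mesenchyme (12.9 against 5.67 TPM). The ectoderm difference minus the mesenchyme difference was -1.34 on the log2 scale of TPM plus 1, and from -1.69 to -0.92 over the alternatives tried. This difference was not tested, since each group has 1 deposited value. The check for a single library far from the others of its group needs values per library and was not made.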

How the results depend on the processing

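Counts of members past the fold used were recomputed under 10 alternatives. Shifts are listed where the 2 counts differed by more than 1.5-fold or 1 of them was 0, with some smaller ones added. The share of all genes past the fold also changed with the setting. For KO ectoderm it rose from 4.93% higher to 7.05% with a pseudocount of 0.1, where 13 members were higher. Members at least 1.5-fold higher in KO than WT ectoderm (9 as reported) numbered 2 with a pseudocount of 5, 4 with a minimum mean of 5 TPM, 2 after quantile normalization and 5 after centring on the median of all genes. Members lower there (0 as reported) numbered 1 with a pseudocount of 0.1, 1 after quantile normalization and 1 after subtracting a mesenchyme share. Members higher in KO than WT mesenchyme (10) numbered 18 after GC correction, 15 after quantile normalization, 13 after centring and 7 with a pseudocount of 5. Of the WT layers, members higher in ectoderm (1) numbered 2 with a pseudocount of 0.1, 2 after quantile normalization and 3 after GC correction, and members lower (14) numbered 7 with a pseudocount of 5 and 9 with a minimum mean of 5 TPM. For the ectoderm minus mesenchyme KO effect, members above (0) numbered 2 with a pseudocount of 0.1, and members below (2) numbered 1 with a pseudocount of 0.1, 0 with a pseudocount of 5, 6 after quantile normalization and 5 after GC correction. The cause of these shifts was not tested. Tubb3 and Lhx2 were higher in KO ectoderm, and Dcx, Stmn2, Stmn3, Stmn4, Elavl4, Sncg and Isl1 in KO mesenchyme, under every setting run. Subtracting KO mesenchyme from KO ectoderm was not among these settings. No called gene changed sign. No paired analysis was possible because the table holds 1 value per group, and leaving out single replicates was not run for the same reason. Depth is unknown, so counting error at low TPM could not be given.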
